A study of Mus musculus with 17 samples.

Results

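The extracellular matrix and the contractile machinery of stromal cells were followed here through 40 genes in CD8 T cells of 4 kinds. They encode fibrillar and basement membrane collagens, matrix glycoproteins and proteoglycans, enzymes and chaperones of collagen maturation, and matrix proteases and their inhibitors. Others encode smooth muscle contractile proteins and proteins grouped here as a response to stretch or spreading. The genes were chosen by name, with earlier results of these data known. Each was read from the array probe that carries its symbol, with the brightest probe standing for a gene with several. Of the 40 genes, 38 had a probe, among 19057 genes with a probe in all. Of these 38, 29 were above background on at least 3 of the 17 arrays and were tested, together with 10236 genes in all.

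The study compared T cells that carry the transgenic OT-I receptor, which sees an ovalbumin (OVA) peptide. The mice had a C57Bl/6 background and an age of 2 to 6 months. Naive cells came from the spleen (n = 5), and memory cells came from the spleen 3 months after infection with Listeria monocytogenes carrying OVA (n = 3). Effectors (Teff, n = 5) had been cocultured with dendritic cells (DC) of the spleen, which activated them. Partial memory cells (Tpm, n = 4) had instead been cocultured with, and primed by, LSEC, the endothelial cells that line the sinusoids of the liver. One Teff sample, number 8, has the spleen as its labelled source in place of the coculture. All are labelled as isolated lymphocytes. Samples are numbered from 1 to 17 through all groups, and values of a group are given in the order of these numbers: naive 1, 2, 11, 12 and 13, Teff 6, 8, 10, 16 and 17, Tpm 4, 7, 14 and 15, and memory 3, 5 and 9. The labels do not say whether samples of 1 group had different mice or cultures behind them. Xist was at background and Eif2s3y above it on naive 13, Teff 17 and Tpm 14, a male pattern. All other arrays had the reverse, so naive cells, Teff and Tpm each came from more than 1 mouse. Other samples may still share a mouse or culture. A p-value here therefore speaks of the spread among these samples, which may be technical in part or, in memory cells, in whole.

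Collagens are made as long precursors that chaperones and hydroxylases fold in the endoplasmic reticulum, and that lysyl oxidases cross-link outside the cell. Type IV collagen, laminins and nidogen form the thin sheet under endothelium and epithelium, whereas types I, III and V build fibrils in the interstitium, and small proteoglycans such as biglycan and decorin bind them. In the liver these proteins are known from hepatic stellate cells, portal fibroblasts and sinusoidal endothelial cells, and a stellate cell that turns into a myofibroblast gains smooth muscle actin. Cells that are stretched or spread on a stiff surface move the co-activators YAP and TAZ to the nucleus, where they act through TEAD factors on genes such as Ccn1, Ccn2 and Ankrd1.

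Signal differed between arrays. The mean signal lay between 227 and 471 on 15 arrays, and was 140 on memory 3 and 96.7 on memory 5. On these 2 arrays 29.9% and 19.7% of probes were above background, against 31.6% to 37.4% elsewhere, and the dimmest value above background was 6.45 on memory 5 against 4.69 to 5.06 on the others, on the log2 scale used throughout. Results that involve memory cells were therefore recomputed without memory 3 and 5, and a paragraph on the memory arrays gives where they differ. Markers of CD8 T cells were above background on every array, 8 or 9 of 9 with a probe. The highest of them in Tpm was Cd8b1, at a mean of 13.94, and the lowest Cd8a, whose probe was above background on 1 Tpm array and no naive array.

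Tpm carried matrix transcripts and, among the contractile genes, mainly Acta2, most of them at background in naive cells and Teff. Among the exceptions were Lamc1, above background on 5 Teff arrays, Timp2, on 5 naive and 4 Teff arrays, and Mmp14, on 4 Teff arrays. Between 23 and 31 of the 38 genes were above background on each Tpm array, against 1 to 4 on each naive array and 3 to 6 on each Teff array. On the memory arrays there were 19, 3 and 4. The signals of the 38 genes, corrected for background, summed to 3825 to 8241 on the Tpm arrays, 632 to 829 on the naive, 455 to 554 on the Teff and 501 to 1326 on the memory arrays. The ranges of Tpm and every other group did not overlap. The arrays hold RNA of whole samples, so fewer cells of a type and less RNA per cell cannot be told apart.

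**Figure D1:**
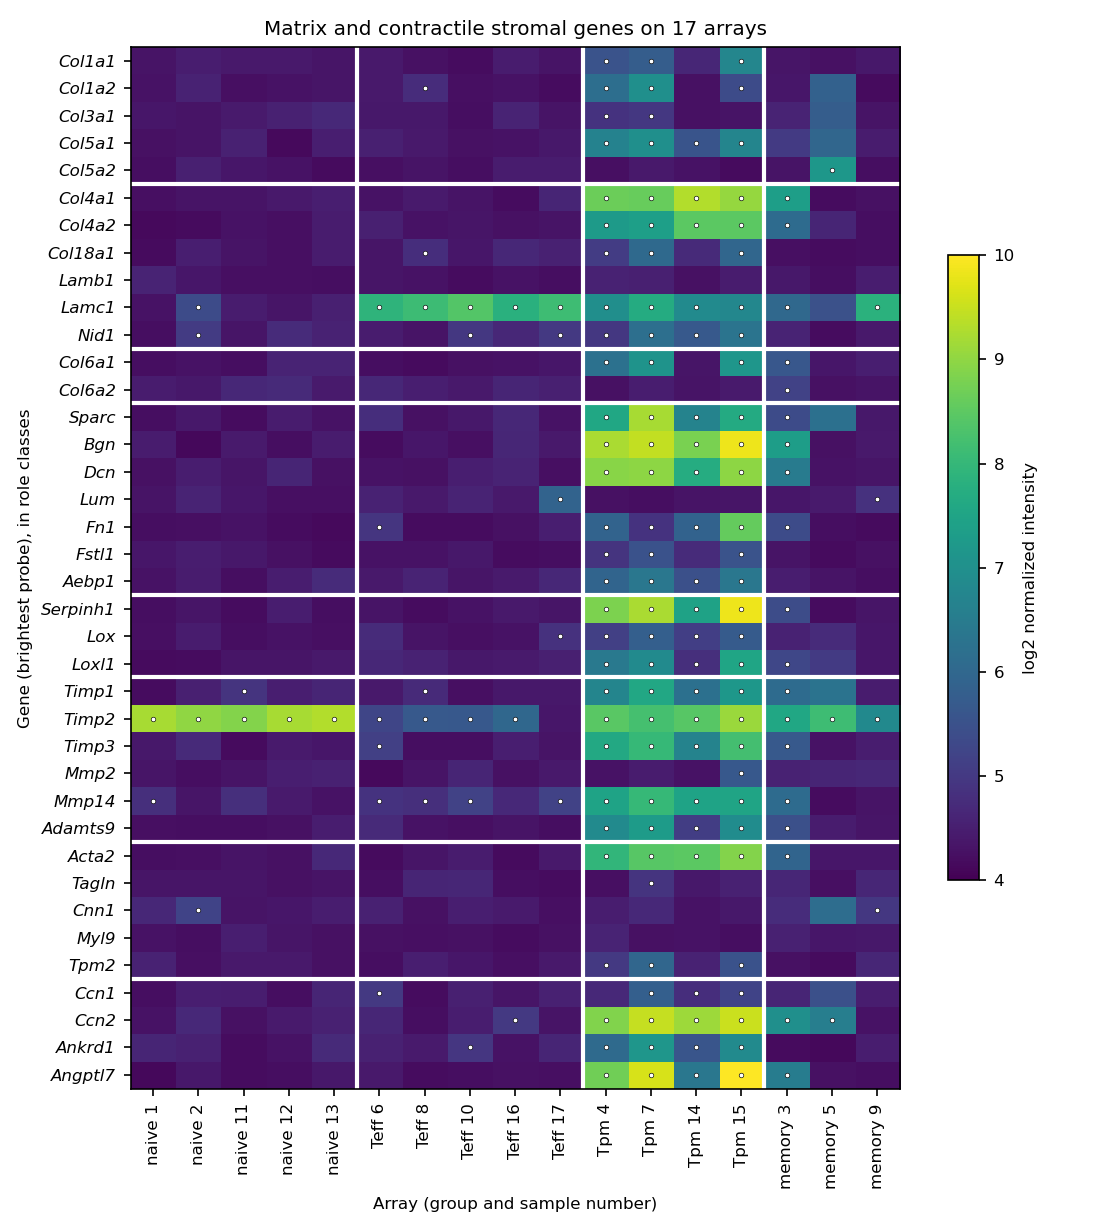
Heat map of the log2 normalized intensity of the 38 genes with a probe (rows, in role classes divided by white lines) on the 17 arrays (columns, divided by group). A white dot marks a gene above background on that array. The Tpm columns hold 23 to 31 dots each, and memory 3 holds 19.

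Against naive cells, 25 of the 29 tested genes were called higher in Tpm and 0 lower, where calls needed a change of 2-fold or more with an adjusted p below 0.05 (limma, Benjamini-Hochberg over all 10236 genes). Of all genes tested, 8.68% were called higher and 5% lower in this comparison. The median difference was 2.13 for the 29 genes and 0.06 for all genes, on the log2 scale, and 1.65 for the 29 genes with those at background in naive cells set to the bound described with Col4a1. Against Teff, 23 were called higher and 1 lower (7.74% and 8% of all genes), with a median of 2.10 (1.85 with bounds) against 0.04. Against memory cells, 23 were called higher and 0 lower (9.94% and 5.34% of all genes), with a median of 1.70 (1.37 with bounds) against 0.14. With memory 3 and 5 left out, 21 were called higher and 0 lower (7.62% and 4.88% of all genes in that fit). There memory 9 stands alone and is assumed to vary like the other groups.

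These counts are a description. The genes were chosen with earlier results of these data known, so their excess over the shares of all genes is no independent result. Of the 29 genes, 23 were above background on fewer than 3 arrays outside Tpm, so they entered the test through the Tpm arrays and had to differ. The other 6 were Lamc1, Nid1, Timp1, Timp2, Mmp14 and Ccn2. The 3 comparisons also share the Tpm arrays. Of the 29 genes, 21 were called higher in Tpm against each of the other groups, which 1.81% of all genes were (19 genes and 1.73% without memory 3 and 5). For 15 genes every Tpm array lay above every other array (2.48% of all genes), and for 20 genes without memory 3 and 5. For 12 genes every Tpm array and no naive or Teff array was above background (0.811% of all genes), and these 12 read between 4.13 and 4.78 on all naive and Teff arrays.

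**Figure D2:**
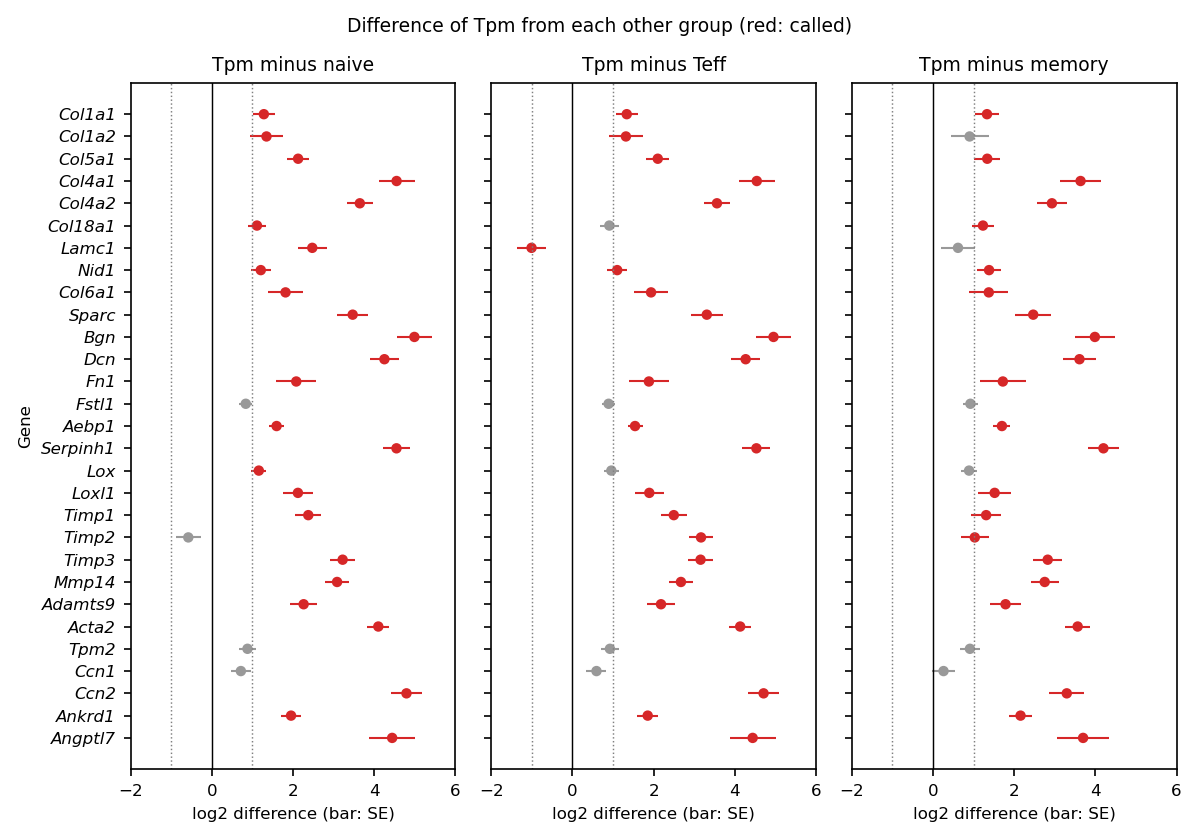
Difference of Tpm from naive cells, Teff and memory cells for the 29 tested genes, on the log2 scale, with the standard error as a bar. Red points were called, grey points were not, dotted lines mark a 2-fold difference. Lamc1, just past -1 against Teff, is the called gene to the left of 0.

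Among the basement membrane genes, all 5 that were tested were higher in Tpm than in naive cells: Col4a1, Col4a2, Col18a1, Lamc1 and Nid1. The 2 chains of the common type IV collagen, Col4a1 and Col4a2, lie head to head on the same chromosome. Their promoter windows are shown because both genes were read at background in naive cells and Teff and above it in Tpm. Each window runs from 250 bases before the annotated start to 50 after it (RefSeq, GRCm38.p6), and the capitals mark the 78 bases that both windows cover, chr8:11312777-11312854, which read as each other's reverse complement. The annotated starts are 21 bases apart. The window of Col4a1 is chr8:11312777-11313076 on the minus strand, and that of Col4a2 is chr8:11312555-11312854 on the plus strand.
Col4a1: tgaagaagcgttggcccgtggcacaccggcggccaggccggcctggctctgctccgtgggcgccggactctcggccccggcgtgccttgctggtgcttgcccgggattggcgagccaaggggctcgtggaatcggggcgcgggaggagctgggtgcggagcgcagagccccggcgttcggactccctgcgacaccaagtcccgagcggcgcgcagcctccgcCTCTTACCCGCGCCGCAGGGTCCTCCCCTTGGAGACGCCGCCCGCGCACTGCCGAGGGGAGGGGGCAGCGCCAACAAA
Col4a2: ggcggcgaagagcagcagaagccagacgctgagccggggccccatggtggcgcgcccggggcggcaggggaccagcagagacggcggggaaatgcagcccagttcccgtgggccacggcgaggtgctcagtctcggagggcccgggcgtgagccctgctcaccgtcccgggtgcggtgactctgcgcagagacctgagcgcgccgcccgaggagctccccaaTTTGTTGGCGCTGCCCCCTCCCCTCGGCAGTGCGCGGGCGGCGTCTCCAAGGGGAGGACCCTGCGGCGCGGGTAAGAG

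Col4a1 read 8.66, 8.61, 9.31 and 9.05 on the Tpm arrays, and was above background on all of them. It read 4.25, 4.32, 4.31, 4.40 and 4.51 in naive cells, 4.29, 4.43, 4.31, 4.20 and 4.61 in Teff and 7.36, 4.20 and 4.26 in memory cells. Every naive and Teff array was at background, memory 3 lay between these and Tpm, and the Tpm arrays overlapped with no other array. The mean in Tpm was 8.91 ± 0.33 (SD, n = 4), at least 16.8-fold higher than in naive cells (limma, adjusted p = 7.82e-07). Such bounds set a gene at background to the dimmest value above background on the same array. Differences of such a gene that are given on the log2 scale, also with an array left out or by another probe, are fitted values against background and no measure of fold. Col4a2 read 7.27, 7.39, 8.49 and 8.49 in Tpm, 4.15, 4.18, 4.28, 4.25 and 4.46 in naive cells, 4.52, 4.30, 4.35, 4.27 and 4.32 in Teff and 6.10, 4.63 and 4.21 in memory cells. The chain followed the same order of groups, at least 8.43-fold higher in Tpm than in naive cells (adjusted p = 2.40e-07) and at least 8.74-fold higher than in Teff (2.37e-07). Both chains were highest on Tpm 14 and 15.

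Lamc1, the gamma chain shared by most laminins, had another order of groups. It read 4.30, 5.37, 4.47, 4.34 and 4.52 in naive cells, 7.91, 8.12, 8.40, 7.82 and 8.14 in Teff, 6.96, 7.69, 6.87 and 6.78 in Tpm and 6.04, 5.50 and 7.83 in memory cells. Teff was highest, with no overlap with Tpm, and 4 of 5 naive arrays were at background. Tpm exceeded naive cells by 2.47 on the log2 scale (SE 0.36, adjusted p = 6.21e-05) and differed from Teff by -1.005 (SE 0.36, adjusted p = 0.0430). The call against Teff lies at the 2-fold limit and was lost under 15 of 27 alternative settings, among them those without Tpm 4 (-0.97), Tpm 14 (-0.94) or Tpm 15 (-0.91). A second kept probe of Lamc1 was 0.92 higher in Tpm than in naive cells. Col18a1, whose end is cleaved off as endostatin, was called against naive cells (at least 1.54-fold, adjusted p = 0.00137) and memory cells (at least 1.01-fold, 0.00201), where it was at background on all arrays, and differed from Teff by 0.91 on the log2 scale, under 2-fold. Its call against naive cells is lost without Tpm 7 (a fitted difference of 0.92) or Tpm 15 (0.93). Nid1, nidogen, which links laminin to type IV collagen, was called in all 3 comparisons, by 1.21 from naive cells, 1.10 from Teff and at least 1.27-fold from memory cells (adjusted p = 0.00179), though its Tpm arrays overlapped with naive and Teff arrays. Its call against Teff is lost without Tpm 7 (0.97), Tpm 15 (0.92) or Teff 8 (0.99). Lamb1, a laminin beta chain, was above background on no array.

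Of 5 genes of fibrillar collagens, 3 were tested, and all 3 were called higher in Tpm than in naive cells: Col5a1, Col1a1 and Col1a2. Col5a1, a chain of the collagen that starts fibrils, read 6.67, 6.98, 5.56 and 6.73 in Tpm, 4.27, 4.31, 4.55, 4.16 and 4.50 in naive cells, 4.54, 4.41, 4.28, 4.29 and 4.38 in Teff and 5.01, 5.98 and 4.45 in memory cells. It was above background on all 4 Tpm arrays and on no other array, since the value of memory 5 falls under that array's limit. The difference was at least 3.14-fold from naive cells (adjusted p = 2.16e-05) and at least 3.25-fold from Teff (1.92e-05). Col1a1 and Col1a2, the chains of type I collagen, were above background on Tpm 4, 7 and 15 and not on Tpm 14. Col1a1 read 5.54, 5.76, 4.64 and 6.75 in Tpm, 4.31, 4.48, 4.40, 4.41 and 4.35 in naive cells, 4.42, 4.26, 4.20, 4.46 and 4.32 in Teff and 4.35, 4.28 and 4.39 in memory cells. On Tpm 14 it was close to the naive range, and the mean difference from naive cells was at least 1.78-fold (0.00167). Col1a2 read 6.17, 6.99, 4.27 and 5.37 in Tpm, 4.30, 4.58, 4.25, 4.30 and 4.34 in naive cells, 4.40, 4.77, 4.25, 4.30 and 4.19 in Teff and 4.35, 5.86 and 4.18 in memory cells, so that Tpm overlapped with every other group. Its call against naive cells (at least 1.82-fold, adjusted p = 0.0214) is lost without Tpm 4 (a difference of 1.20) or Tpm 7 (0.92). Against memory cells Col1a2 was not called (at least 1.19-fold, adjusted p = 0.177). Col3a1 was above background on Tpm 4 and 7, at 4.88 and 4.97, and Col5a2 on memory 5, at 7.18, so neither was tested. Of the beaded filament type VI collagen, Col6a1 read 6.24, 7.09, 4.33 and 7.15 in Tpm, 4.22, 4.30, 4.22, 4.60 and 4.59 in naive cells, 4.23, 4.18, 4.26, 4.29 and 4.36 in Teff and 5.62, 4.36 and 4.50 in memory cells. Its Tpm 14 value lay within the naive range and the other 3 Tpm arrays were above all others. It was at least 2.58-fold higher than in naive cells (0.00356). Against memory cells the call (1.37, adjusted p = 0.0438) is lost under 21 of 27 alternative settings. With single arrays left out the difference ran from 1.06 to 1.99, and the call was kept only without memory 3 (1.80) or Tpm 14 (1.99). Col6a2 was above background on memory 3 and on no Tpm array.

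Of 7 matrix proteoglycans and glycoproteins with a probe, 6 were tested and 5 called higher in Tpm than in naive cells: Bgn, Dcn, Sparc, Fn1 and Aebp1. Bgn, biglycan, a small leucine-rich proteoglycan, read 9.24, 9.44, 8.79 and 9.85 in Tpm and 4.46, 4.13, 4.44, 4.23 and 4.45 in naive cells. In Teff it read 4.20, 4.37, 4.25, 4.65 and 4.41, and in memory cells 7.35, 4.27 and 4.41. All naive and Teff arrays were at background and all Tpm arrays lay over memory 3, the only memory array above background. It was at least 22.5-fold higher in Tpm than in naive cells (adjusted p = 2.45e-07) and at least 23.4-fold higher than in Teff (2.10e-07). Dcn, decorin, which binds collagen fibrils, read 8.94, 8.98, 7.70 and 8.97 in Tpm, 4.27, 4.48, 4.33, 4.63 and 4.28 in naive cells, 4.29, 4.27, 4.50, 4.60 and 4.25 in Teff and 6.50, 4.29 and 4.33 in memory cells. Tpm 4, 7 and 15 were nearly equal and Tpm 14 lay below them, with memory 3 again between Tpm and the rest. The bound against naive cells was at least 14.1-fold (2.00e-07), and a second kept probe of Dcn differed by 1.90 on the log2 scale. Sparc, a collagen-binding glycoprotein, read 7.57, 9.23, 6.69 and 7.66 in Tpm, 4.23, 4.39, 4.20, 4.46 and 4.30 in naive cells, 4.78, 4.26, 4.38, 4.67 and 4.29 in Teff and 5.37, 6.21 and 4.38 in memory cells. Tpm 7 was the highest and Tpm 14 the lowest, and the mean was at least 7.74-fold higher than in naive cells (3.96e-06). Its other 2 kept probes differed by 1.53 and 3.32.

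Fn1, fibronectin, varied widely between the Tpm arrays, at 5.90, 4.88, 5.88 and 8.57, with Tpm 15 far above Tpm 7. It was called against all 3 groups, at least 2.78-fold from naive cells (adjusted p = 0.00419) and by 1.88 from Teff and 1.72 from memory cells on the log2 scale, but the call against memory cells is lost without Tpm 15 (0.96), memory 5 (1.57) or memory 9 (1.52). Aebp1, a collagen-binding carboxypeptidase-like protein, was above background on no array outside Tpm. It was called in the 3 comparisons, at least 2.30-fold from naive cells (adjusted p = 5.44e-06), 2.38-fold from Teff (5.73e-06) and 1.503-fold from memory cells (1.51e-05). Fstl1, a secreted follistatin-like glycoprotein, lay higher on every Tpm array than on every other array, but it was not called, since its fitted differences of 0.84, 0.89 and 0.92 were under 2-fold. Lum, lumican, a proteoglycan related to decorin, was above background on Teff 17 and memory 9 and on no Tpm array, and was not tested. Fbn1 was not measured here.

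**Figure D3:**
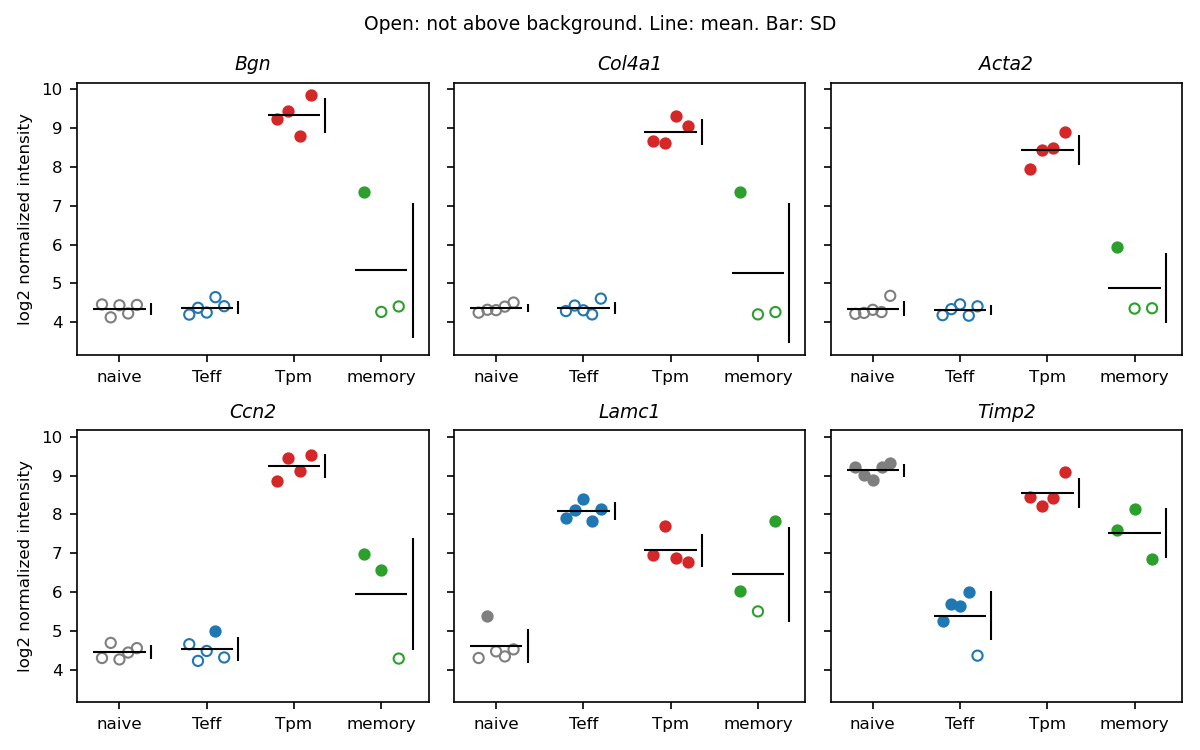
Log2 normalized intensity of Bgn, Col4a1, Acta2, Ccn2, Lamc1 and Timp2 on each array, by group (line, mean, bar, SD). Filled points were above background and open points were not. Bgn, Col4a1, Acta2 and Ccn2 separate the 4 Tpm arrays from all others, whereas Lamc1 is highest in Teff and Timp2 in naive cells.

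All 3 tested genes of collagen maturation were called higher in Tpm than in naive cells. Serpinh1, the collagen chaperone HSP47, read 8.81, 9.24, 7.46 and 9.85 in Tpm, 4.23, 4.34, 4.19, 4.48 and 4.22 in naive cells, 4.31, 4.20, 4.29, 4.40 and 4.34 in Teff and 5.40, 4.19 and 4.33 in memory cells. The lowest Tpm array, Tpm 14, was still above all arrays of the other groups, and the difference from naive cells was at least 16.0-fold (adjusted p = 5.19e-08). Another probe of Serpinh1, not kept, was above background on 2 Tpm arrays, at a Tpm mean of 4.89 against 4.56 in naive cells. Loxl1, a lysyl oxidase known for its part in elastic fibres, read 6.43, 6.87, 4.81 and 7.53 in Tpm, 4.18, 4.20, 4.33, 4.34 and 4.40 in naive cells, 4.66, 4.58, 4.40, 4.42 and 4.53 in Teff and 5.28, 5.02 and 4.37 in memory cells. On Tpm 14 it was just above background, below memory 3 and 5, and the difference from naive cells was at least 2.98-fold (0.000276). Lox, which cross-links collagen and elastin, read 5.14, 5.81, 5.12 and 5.71 in Tpm, 4.25, 4.45, 4.23, 4.28 and 4.24 in naive cells, 4.73, 4.33, 4.25, 4.29 and 4.85 in Teff and 4.58, 4.73 and 4.36 in memory cells. All Tpm arrays lay above all others, by small amounts. Lox was called against naive cells (at least 1.53-fold, 0.000130), while its fitted differences of 0.96 from Teff and 0.89 from memory cells were under 2-fold. Loxl2 was not measured here.

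Of 5 tested proteases and inhibitors, 4 were called higher in Tpm than in naive cells: Timp3, Timp1, Mmp14 and Adamts9. Timp3, a tissue inhibitor of metalloproteases that stays bound to the matrix, read 7.62, 8.02, 6.69 and 8.22 in Tpm, 4.40, 4.70, 4.18, 4.43 and 4.37 in naive cells, 5.13, 4.23, 4.21, 4.51 and 4.32 in Teff and 5.68, 4.28 and 4.47 in memory cells. The Tpm arrays overlapped with none of the others. By this probe it was at least 6.98-fold higher than in naive cells (adjusted p = 7.59e-07), although its second kept probe differed by 0.0090. The second probe was above background on 1 Tpm, 1 naive and 3 Teff arrays, and its mean was higher in Teff (4.90) than in Tpm (4.64). Timp1, a soluble inhibitor, read 6.74, 7.59, 6.21 and 7.17 in Tpm, 4.19, 4.52, 4.91, 4.51 and 4.62 in naive cells, 4.42, 4.72, 4.24, 4.39 and 4.38 in Teff and 6.09, 6.29 and 4.46 in memory cells. Its Tpm arrays lay above all naive and Teff arrays and overlapped with memory 5. It differed from naive cells by 2.38 (SE 0.32, adjusted p = 2.66e-05), and its second kept probe gave 2.39. Its call against memory cells (1.31) is lost without memory 9 (0.73).

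Timp2, an inhibitor that also takes part in activating Mmp2, moved differently. It read 9.22, 9.01, 8.89, 9.22 and 9.32 in naive cells, 5.24, 5.68, 5.64, 6.00 and 4.36 in Teff, 8.45, 8.22, 8.43 and 9.10 in Tpm and 7.58, 8.13 and 6.85 in memory cells. Naive cells were highest and Teff lowest, with no overlap between them, and Tpm overlapped with naive cells. Tpm and naive cells did not differ past the threshold (-0.58, SE 0.30, adjusted p = 0.177). Tpm exceeded Teff by 3.17 (adjusted p = 4.83e-07) and memory cells by 1.03 (0.0347), a call that is lost without memory 3 (1.07), memory 9 (0.69), Tpm 4 (1.06) or Tpm 15 (0.85). Mmp14, a protease held in the cell membrane that activates Mmp2, read 7.49, 8.02, 7.48 and 7.51 in Tpm, 4.80, 4.33, 4.82, 4.44 and 4.30 in naive cells, 4.88, 4.80, 5.18, 4.69 and 5.19 in Teff and 6.10, 4.19 and 4.32 in memory cells. Tpm lay above all others, and 4 of the 5 Teff arrays were above background at a low level. The difference was 3.08 from naive cells (SE 0.30, 7.73e-07) and 2.67 from Teff (SE 0.30, 3.03e-06). Adamts9, a secreted proteoglycan-cleaving protease, was called in all 3 comparisons, at least 3.27-fold higher than in naive cells. Mmp2, gelatinase A, was above background on Tpm 15 alone, at 5.65, and was not tested.

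Of 5 contractile genes, 2 were tested and 1 was called, Acta2. Acta2, smooth muscle actin, read 7.96, 8.44, 8.49 and 8.90 in Tpm, 4.22, 4.24, 4.32, 4.26 and 4.68 in naive cells, 4.18, 4.34, 4.46, 4.17 and 4.41 in Teff and 5.93, 4.35 and 4.36 in memory cells. The Tpm arrays lay between 7.96 and 8.90 and above all others, and memory 3 alone among the remaining arrays was above background. Acta2 was at least 12.2-fold higher in Tpm than in naive cells (adjusted p = 9.55e-09) and at least 12.7-fold higher than in Teff (5.88e-09). Of its other 3 kept probes, the differences from naive cells were 1.89, 0.62 and 0.25. Tpm2, beta-tropomyosin, was above background on Tpm 4, 7 and 15, but its difference from naive cells (at least 1.35-fold, adjusted p = 0.00575) was not called, the fitted value of 0.88 being under 2-fold. Tagln, transgelin, was above background on Tpm 7 alone, at 4.91. Cnn1, calponin, and Myl9, a regulatory myosin light chain, were above background on no Tpm array. The label of contractile genes thus rested on Acta2, as beaded collagens rested on Col6a1, whereas the other classes had 3 or more genes called higher than in naive cells.

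Of 4 genes grouped here as a stretch response, all were tested and 3 called higher in Tpm than in naive cells: Ccn2, Angptl7 and Ankrd1. Whether Angptl7 responds to stretch was not tested. Ccn2, connective tissue growth factor, read 8.87, 9.46, 9.11 and 9.52 in Tpm, 4.30, 4.69, 4.26, 4.44 and 4.55 in naive cells, 4.65, 4.22, 4.48, 5.00 and 4.31 in Teff and 6.98, 6.57 and 4.28 in memory cells. Tpm lay above all others, and memory 3 and 5 above memory 9. It was at least 21.2-fold higher in Tpm than in naive cells (adjusted p = 8.62e-08), with 4.79 and 4.50 on the log2 scale for its 2 kept probes. Angptl7, a secreted angiopoietin-like protein known from corneal stroma and the outflow tissue of the eye, read 8.70, 9.64, 6.39 and 10.10 in Tpm, 4.13, 4.39, 4.20, 4.21 and 4.40 in naive cells, 4.42, 4.20, 4.23, 4.26 and 4.24 in Teff and 6.52, 4.28 and 4.23 in memory cells. It spanned 3.71 between Tpm 14 and Tpm 15, and memory 3 lay above Tpm 14. The mean was at least 14.7-fold higher than in naive cells (1.48e-05). A second kept probe of Angptl7 differed by 1.65 on the log2 scale, against 4.44 for this one. Ankrd1, an ankyrin-repeat protein induced by stretch in muscle, read 6.08, 7.16, 5.58 and 6.88 in Tpm, 4.61, 4.54, 4.20, 4.29 and 4.71 in naive cells, 4.55, 4.43, 4.94, 4.30 and 4.62 in Teff and 4.19, 4.14 and 4.48 in memory cells. Unlike Ccn2, it stayed at background on memory 3. It was at least 3.01-fold higher than in naive cells (2.10e-05). A second kept probe of Ankrd1 differed by 1.08 on the log2 scale, against 1.95 for this one. Ccn1, a matricellular protein related to Ccn2, depended on the probe. By its brightest probe it was not called in any of the 3 comparisons (at least 1.22-fold from naive cells, adjusted p = 0.0387, a fitted 0.72). By its second kept probe, which a stricter background threshold selects, it was called in all 3, with fitted differences of 1.36 from naive cells (adjusted p = 0.00131), 1.26 from Teff (0.00198) and 1.27 from memory cells (0.00659), and the mean of both probes was called against naive cells (1.04).

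Of the 40 genes, 28 had a promoter window, and 8 of these held the letters that TEAD factors bind. The windows of Acta2, Ccn1 and Ankrd1 are shown. These letters, CATTCC or, on the other strand, GGAATG, are given in capitals. The windows are chr19:34255324-34255623 (Acta2), chr3:145649936-145650235 (Ccn1) and chr19:36119795-36120094 (Ankrd1), all on the minus strand of GRCm38.p6 in RefSeq.
Acta2: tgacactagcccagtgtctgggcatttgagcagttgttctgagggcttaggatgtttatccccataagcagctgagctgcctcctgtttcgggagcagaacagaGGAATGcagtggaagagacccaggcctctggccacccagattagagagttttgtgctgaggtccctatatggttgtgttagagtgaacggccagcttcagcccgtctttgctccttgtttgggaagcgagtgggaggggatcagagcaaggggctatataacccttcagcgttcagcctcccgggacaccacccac
Ccn1: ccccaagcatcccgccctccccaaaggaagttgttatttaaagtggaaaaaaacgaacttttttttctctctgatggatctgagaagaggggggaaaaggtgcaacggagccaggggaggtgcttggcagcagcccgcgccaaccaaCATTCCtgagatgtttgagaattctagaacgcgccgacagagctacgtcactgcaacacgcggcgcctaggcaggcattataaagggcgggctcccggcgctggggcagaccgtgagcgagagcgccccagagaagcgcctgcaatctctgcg
Ankrd1: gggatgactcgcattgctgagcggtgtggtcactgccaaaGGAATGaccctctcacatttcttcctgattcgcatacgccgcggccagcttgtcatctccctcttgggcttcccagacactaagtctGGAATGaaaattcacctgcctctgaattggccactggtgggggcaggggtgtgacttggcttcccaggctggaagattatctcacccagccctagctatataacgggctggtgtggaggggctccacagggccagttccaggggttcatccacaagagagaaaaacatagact

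The match starts 146 bases before the annotated start in Acta2 and 103 in Ccn1, and Ankrd1 has 2, at 210 and 123. Of the 40 genes, 28 had a window, 30 windows in all, and 8 windows held the letters: those of Col3a1, Col18a1, Nid1, Col6a2, Timp1, Acta2, Ccn1 and Ankrd1. Of all 32851 windows in the table, 14.7% held them. Of these 8 genes, Col3a1 and Col6a2 were not tested, and Ccn1 was called by its second probe and not by its brightest. Ccn2 was not among the 8, and whether it had a window is not given here.

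The Tpm arrays differed among themselves along these genes. Of the 25 genes called higher than in naive cells, 18 (72%) were lowest on Tpm 14, against 276 (31.1%) of the 888 genes called higher in all. Tpm 15 was highest for 12, Tpm 7 for 11 and Tpm 14 for 2, Col4a1 and Col4a2. The range over the 4 arrays had a median of 1.38 for the 25 genes and 0.99 for the 888, on the log2 scale. Set against the mean of the other Tpm arrays, Tpm 14 differed by -3.09 for Angptl7, -2.50 for Col6a1, -2.14 for Loxl1 and -1.84 for Serpinh1. For Col4a1, Col4a2 and Acta2 the same difference was 0.54, 0.78 and 0.06. The mean of the 3 fibrillar collagens was 4.82 on Tpm 14 and 6.13 to 6.58 on the other Tpm arrays, whereas that of the 5 basement membrane genes was 7.01 on Tpm 14 and 6.59 to 7.32 on the others. Col1a1, Col1a2, Col6a1 and Col18a1 were thus at background on Tpm 14, while Col5a1, Col4a1, Col4a2 and Acta2 were above it. With Tpm 14 left out, 26 genes were called higher than in naive cells, and every Tpm array lay above every other array for 23 genes in place of 15.

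**Figure D4:**
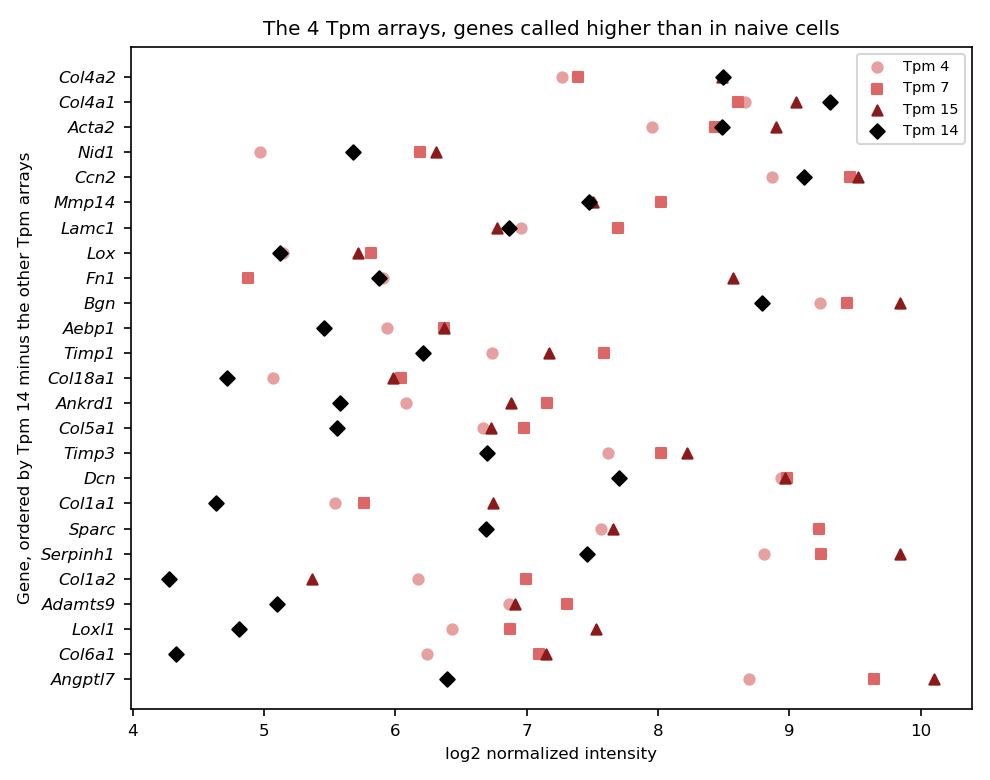
Log2 normalized intensity on each of the 4 Tpm arrays for the 25 genes called higher in Tpm than in naive cells, ordered by Tpm 14 minus the mean of the other 3 Tpm arrays. Tpm 14 is the rightmost or shares the right end for Col4a1 and Col4a2 at the top and lies far to the left for Angptl7 and Col6a1 at the bottom.

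Tpm 14 stood apart in other genes as well. Of 11 macrophage markers with a probe, 8 were above background on Tpm 14 and 0 or 1 on the other Tpm arrays, with summed corrected signals of 1842 against 50.8 to 78.6, though naive 1 and naive 11 had 8 and 7. Summed dendritic cell markers reached 9430 on Tpm 14 and 448 to 522 on the other Tpm arrays. It was also the one Tpm array with a male pattern, as naive 13 and Teff 17 were in their groups, with Eif2s3y at 10.88 and Xist at 4.21, against 4.17 to 4.32 and 11.47 to 12.29 on the others. The part of these differences in the level of matrix genes was not tested.

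Markers of the other cell types that a liver coculture could hold were read beside the matrix genes. Of 20 endothelial markers, 13 to 15 were above background on each Tpm array, 3 to 6 on the naive, 5 or 6 on the Teff and 1 to 7 on the memory arrays. Their summed corrected signals were 1861 to 3162 in Tpm, 256 to 621 in naive cells, 989 to 1460 in Teff and 150 to 560 in memory cells. The highest in Tpm was Egfl7, at a mean of 8.95, and the lowest Flt4, at 4.34. Egfl7 was also above background on all 5 Teff arrays, at a mean of 8.17. Stab1 had a higher mean in Teff (9.36) than in Tpm (7.55), and Pecam1 in naive cells (8.21) than in Tpm (7.54). Of 15 tested endothelial markers, 9 were called higher and 1 lower in Tpm than in Teff (7.74% and 8% of all genes). This count is a description. Cdh5, Lyve1, Plvap, Esam, Emcn, Ptprb and Mmrn2 were above background on fewer than 3 arrays outside Tpm. They thus entered the test through the Tpm arrays and had to differ. The adhesion protein Cdh5 and the sinusoidal receptor Lyve1 were above background on 4 of 4 Tpm arrays, and the growth factor receptors Kdr, Flt1 and Flt4 on none. Of 12 stellate cell and pericyte markers, 1 to 3 were above background on each Tpm array and 0 or 1 on every other array, with summed signals of 67.2 to 292 in Tpm, 51.4 to 71.6 in naive cells, 54.7 to 74.4 in Teff and 61.7 to 99.3 in memory cells. Lrat, Reln, Hand2, Pdgfrb, Rgs5, Gfap, Colec11 and Tcf21 were at background on all 4 Tpm arrays. The exception was Pdgfra, a growth factor receptor of fibroblasts and stellate cells, which was above background on 4 of 4 Tpm arrays, at a mean of 6.67 against 4.23 in naive cells, where it was above background on none. Des, desmin, was above background on 3 Tpm arrays, at a mean of 5.03. Of 7 smooth muscle markers, 1 or 2 were above background on each Tpm array (Des and Smtn), 0 or 1 on the naive, 1 or 2 on the Teff and 0 or 1 on the memory arrays, with summed signals of 51.4 to 69.6 in Tpm, 31.6 to 57.2 in naive cells, 68.6 to 134 in Teff and 39.2 to 67.2 in memory cells. Myh11, Actg2, Lmod1, Myocd and Synpo2 were at background on all Tpm arrays. Of 9 hepatocyte markers, 1 or 2 were above background on each Tpm and naive array and 0 to 2 on the Teff and memory arrays, with summed signals of 70.0 to 447 in Tpm, the highest on Tpm 15, 56.1 to 253 in naive cells, 38.6 to 68.8 in Teff and 38.0 to 229 in memory cells. Trf, transferrin, was above background on 4 of 4 Tpm and 4 of 5 naive arrays, at means of 6.85 and 6.23, and was called higher in Tpm than in Teff (2.11 on the log2 scale, adjusted p = 0.0240). Alb, Ttr, Apoa1, Serpina1a, Fgb, Cyp2e1 and Ahsg were at background on all 4 Tpm arrays. The part of cells of these types in the Tpm samples was not tested.

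**Figure D5:**
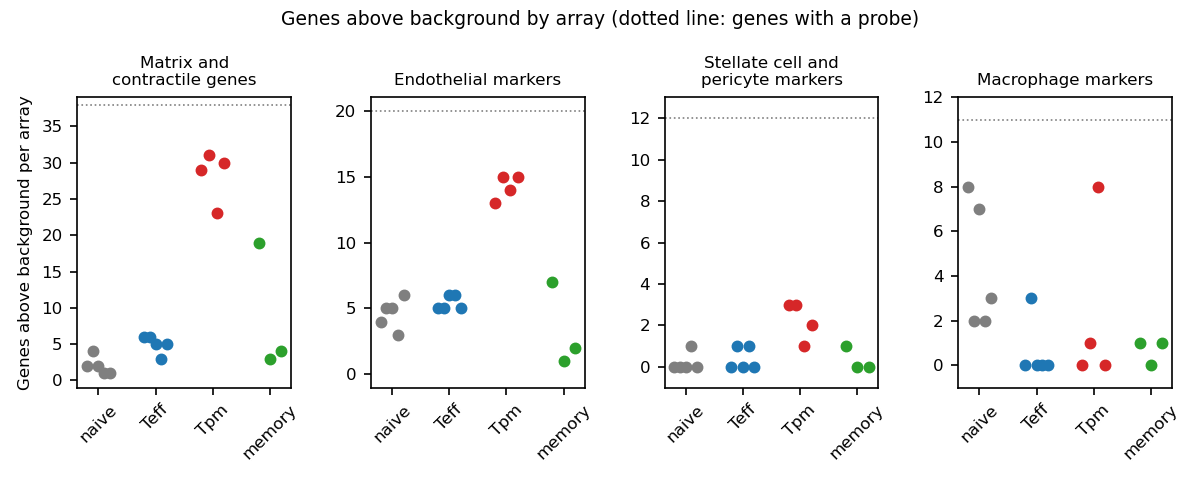
Number of genes above background on each array, by group, for the 38 matrix and contractile genes, 20 endothelial, 12 stellate cell and pericyte and 11 macrophage markers (dotted lines, genes with a probe). Matrix and endothelial genes are most numerous on the Tpm arrays, where stellate cell markers number 1 to 3, and memory 3 and Tpm 14 stand apart from their groups.

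Memory 3 carried part of the same genes. Of the 29 tested genes, 15 were above background on memory 3 and on neither other memory array, as were 3.42% of all genes tested. The high limit of memory 5 bears on this count, since Sparc and Timp1 read higher on memory 5 (6.21 and 6.29) than on memory 3 (5.37 and 6.09) and were still under it. By a count that leaves memory 5 aside, 16 of the 29 genes were above background on memory 3 and higher there than on memory 9 and every naive array, as were 17.2% of all genes. The 15 were Col4a1, Col4a2, Col6a1, Sparc, Bgn, Dcn, Fn1, Serpinh1, Loxl1, Timp1, Timp3, Mmp14, Adamts9, Acta2 and Angptl7. They read between 5.28 and 7.36 there, with a difference from their Tpm mean of -3.44 to -0.58 and a median of -1.81. Of the 350 genes with this pattern in all, 98 (28.0%) were called higher in Tpm than in naive cells, as were 8.68% of all genes. A gene with this pattern was tested only if arrays of other groups were above background too. Genes that passed through the Tpm arrays therefore count in this share, and it is no independent result. Of the 20 endothelial markers, 7 were above background on memory 3, 1 on memory 5 and 2 on memory 9. The 7 were Pecam1, Stab1, Plvap, Egfl7, Esam, Emcn and Eng, of which Stab1 and Emcn read higher on memory 5 than on memory 3, while Cdh5, Lyve1, Stab2 and Oit3 were at background on memory 3. The part of RNA of other cells in the values of memory 3 was not tested. On memory 9, the brightest memory array, 4 of the 38 genes were above background: Lamc1, Timp2, Lum and Cnn1.

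Without memory 3 and 5, the fit of Tpm against memory 9 alone gave a median difference of 2.13 for the 29 genes on the log2 scale in place of 1.70. Col1a1 (1.35, adjusted p = 0.0794), Col6a1 (1.78, 0.115) and Fn1 (2.23, 0.0917) lost their calls against memory cells there, and Lox (1.15, 0.0237) gained one. Col18a1 (1.31, 0.0461), Nid1 (1.44, 0.0434) and Timp2 (1.72, 0.0223) stayed called, as did Timp1 at 2.57 and Aebp1 at 1.90. Col1a2, Fstl1, Tpm2 and Ccn1 were called in neither fit.

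Between memory and naive cells, 3 of the 29 genes were called higher and 1 lower (5.79% and 7.23% of all genes). The 3 were Lamc1 (1.86, adjusted p = 0.00225), Timp1 (1.07, 0.0357) and Ccn2 (at least 2.16-fold, 0.0138). Timp2 was the gene called lower (-1.61, 0.00167). Without memory 3 and 5 the differences of Timp1 and Ccn2 turned to -0.09 and -0.17, and Lamc1 and Timp2 were still called. Between memory cells and Teff, 3 were called higher and 1 lower (11% and 15.8%). Timp2 (2.14, 4.49e-05), Timp1 (1.19, 0.0105) and Ccn2 (1.41, 0.0101) were higher and Lamc1 was lower (-1.62, 0.00281). Without memory 3 and 5 the difference of Ccn2 turned to -0.26, and those of Timp1 and Lamc1 were 0.04 and -0.25, with no call. Between Teff and naive cells, Lamc1 was called higher (3.48, SE 0.34, 2.12e-07) and Timp2 lower (-3.75, SE 0.28, 9.21e-09), 1 gene each way where 13.8% and 11% of all genes were called. The other 27 tested genes did not pass the threshold there.

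Other genes of the same pathways were read from lists of the remaining family members. Here too, genes above background on fewer than 3 arrays outside Tpm entered the test through the Tpm arrays and had to differ. Of 24 other tested collagen, laminin and matrix genes, 4 (16.7%) were higher in Tpm than in naive cells and 0 lower, where 8.68% and 5% of all genes were, with a median difference of 0.21 on the log2 scale. These were Prelp, a proteoglycan of the decorin family that anchors basement membranes, at least 7.47-fold (adjusted p = 6.43e-08), Hspg2, perlecan, at least 3.05-fold (1.48e-07), Fbln2, fibulin, at least 2.34-fold, and Lamb3, by 1.56 on the log2 scale. Against memory cells, 5 (20.8%) were higher and 0 lower (9.94% and 5.34% of all genes): Prelp, Ecm1, Hspg2, Fbln2 and Emilin1. Without memory 3 and 5 there were 6, with Fbln1 and Ltbp3 in and Emilin1 out. Against Teff, 4 were higher (Prelp, Hspg2, Fbln2 and Agrn) and 3 (12.5%) lower (7.74% and 8% of all genes), of which Emilin2 was at least 4.21-fold lower, Fbln1 differed by -1.79 and Ltbp3 by -1.49. Prelp, Hspg2 and Fbln2 were thus called higher in Tpm against each group, also without memory 3 and 5.

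Of 13 other tested genes of collagen maturation, 4 (30.8%) were higher than in naive cells and 0 lower (8.68% and 5% of all genes). These were Bmp1, which trims procollagen (at least 2.10-fold, adjusted p = 3.06e-05), its helper Pcolce2, the chaperone Crtap (1.56 on the log2 scale) and the lysyl hydroxylase Plod3. Against memory cells 2 (15.4%), Bmp1 and Crtap, were higher and 0 lower, and without memory 3 and 5 these were Bmp1 and Pcolce2. Of all genes, 9.94% were called higher and 5.34% lower against memory cells with all arrays. Against Teff, Bmp1 and Pcolce2 were higher, and 3 hydroxylases (23.1%) were lower in Tpm (7.74% and 8% of all genes). They were the prolyl hydroxylases P4ha2 (-4.89, 1.39e-10) and P4ha1 (-2.67, 1.40e-05) and the lysyl hydroxylase Plod2 (-2.64, 6.02e-07), all of them known as genes induced under low oxygen. The collagen chaperone Serpinh1, by contrast, was at least 16.6-fold higher in Tpm than in Teff.

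Of 16 other tested proteases and inhibitors, 4 (25%) were higher in Tpm than in naive cells (Mmp12, Adam15, Adam9 and Mmp13). Reck, a membrane-bound inhibitor, was the 1 gene lower, by -1.40 on the log2 scale. Of all genes, 8.68% were called higher and 5% lower against naive cells. Mmp12, the macrophage elastase, was at least 3.79-fold higher (adjusted p = 0.00811). Mmp12 and Mmp13 were called higher than in Teff, with 0 lower, and Mmp12 and Adamts6 were higher than in memory cells, with Reck lower. These 2 of 16 genes (12.5%) are near the shares of all genes, and without memory 3 and 5 neither Mmp12 (2.27, adjusted p = 0.196) nor Adamts6 (0.75, 0.216) was called against memory cells. Of 19 other tested contractile and focal adhesion genes, 4 (21.1%) were higher than in naive cells and 1 (5.26%) lower (8.68% and 5% of all genes). Vinculin, Vcl, differed by 1.68, Csrp2 by 1.27, Tpm1 by 1.04 and Parva by 1.02, and filamin A, Flna, by -2.03. Against Teff, Actn1, Tpm1 and Lpp were higher and Vim (-3.42), Csrp2 (-1.92), Smtn and Myh10 lower. Those are 15.8% and 21.1% of the list, where 7.74% and 8% of all genes were called. Against memory cells, Actn1 (4.21) and Csrp2 were higher and Flna and Vim lower, 10.5% each way, which for the higher genes is near the share of all genes. Without memory 3 and 5 Actn1 differed by 3.33, Vim was not called (-1.98, adjusted p = 0.122) and Lpp was called lower (-1.69). Many genes of this list, such as Flna, Vim and Actn1, are also expressed by T cells.

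Of 11 other tested genes of the stretch response, 3 (27.3%) were higher than in naive cells and 1 lower (8.68% and 5% of all genes). Wwtr1, which encodes TAZ, was at least 3.11-fold higher than in naive cells (adjusted p = 2.05e-05), at least 3.22-fold higher than in Teff (1.21e-05) and at least 2.04-fold higher than in memory cells (6.04e-05). Tead1, a TEAD factor, was called higher in the same 3 comparisons, at least 1.62-fold (adjusted p = 0.000101), 1.68-fold (7.33e-05) and 1.06-fold (0.00114). With bounds in all 3 comparisons, Wwtr1 and Tead1 were at background on every array outside Tpm. They thus entered the test through the Tpm arrays and had to differ. The receptor kinase Axl was higher than in naive cells (1.52) and memory cells (1.65), the last not without memory 3 and 5 (1.69, adjusted p = 0.131), and Gadd45a was lower than in naive cells (-1.47). Against Teff, Nuak2 (1.71) and Srf were higher beside Wwtr1 and Tead1 (36.4% of the list), and 0 were lower (7.74% and 8% of all genes).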

How the data were processed

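RNA of 17 samples was read on Illumina mouse bead arrays, 1 array per sample, with 45281 probes. Per the labels' protocols, RNA was extracted with QIAzol and miRNeasy and labelled as biotinylated cRNA. Which scanner was used is not given in the sources used here. What the authors deposited are intensities on a linear scale, used as such and not normalized, per the file headers. A second deposited table holds the authors' processed intensities on a linear scale, uncentred and quantile normalized (median of every column 97.8, Spearman correlation with the signals 1), and served as an alternative. No sample column was left unused (0). Gene symbols came from the annotation table of the platform, in which 34885 probes have 1 gene symbol, 18 several and 10378 none.

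The deposited table holds no detection p-values or control probes, so the planned correction with them could not be run. The mode of each array's signals was taken as its background and the root mean square below the mode as its SD. Signals were corrected with normexp, raised by 16, quantile normalized and put on a log2 scale, which understates changes of dim genes. A probe was above background at 2.326 SD over the mode (one-sided p of 0.01), and probes above it on at least 3 arrays were kept, 19103 in all. Of several kept probes the brightest stood for its gene. Probes that were not kept, such as further probes of Mmp14 and Fn1, were left out when probes of a gene were compared. A linear model over all 17 arrays (limma 3.58.1, R 4.3.3) gave 6 comparisons, two-sided, with Benjamini-Hochberg adjustment over 10236 genes. The procedure was tested on simulated data. There were 0 pairs of identical arrays, and the highest correlation between arrays was 0.988. The number of arrays limits the precision. No slide or scan batch is given in the sources used here.

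The 40 genes and the lists of other family members and cell type markers were chosen with earlier results of these data known. Values on every array are given for up to 3 genes per role class with the largest called difference between Tpm and naive cells and for genes called against the direction of their class. Of other family members, up to 3 called genes with the largest difference per list were to be named; the rest of counts of 5 or fewer were named after their values were seen. Of markers, those with the highest and lowest Tpm mean were named, and those at background. Sequences are from RefSeq (GRCm38.p6). Alternatives were no background correction, an offset of 50, median scaling, the authors' table, other probe filters, the mean of the kept probes, array weights, a trended robust variance, and arrays left out.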

Additional observations from a re-analysis of the deposited data

Results flagged for a closer look

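In 3 of 47 groups tested, each 1 gene in 1 group of 4 or 5 arrays, 1 array lay farther from the rest than Dixon's limit at a level of 95% allows, a limit that chance passes in about 5% of groups. Lamc1 read 5.37 on naive 2, the only naive array on which it was above background, while the other naive arrays read 4.30 to 4.52. Dcn read 7.7 on Tpm 14, below 8.94 to 8.98 on the other Tpm arrays. Mmp14 read 8.02 on Tpm 7, above 7.48 to 7.51 on the other Tpm arrays, and all 4 lay above every other array. The cause of these was not tested.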

How the results depend on the processing

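Against naive cells, 13 of the 29 genes were called higher without background correction and with the authors' table, in place of 25. Against Teff there were 13 in place of 23 under the same settings. Against memory cells there were 11 under the same settings and 13 with an offset of 50, in place of 23. The authors' table is in effect the signals quantile normalized without background correction, so these settings are not separate alternatives. Over all genes, each called 364 higher and 232 lower against naive cells. Both settings, and a larger offset, compress the differences of dim genes by construction. With single arrays left out the counts ran from 22 to 26 against naive cells, 20 to 27 against Teff and 19 to 26 against memory cells. Acta2, Angptl7, Bgn, Ccn2, Col4a1, Col4a2, Dcn, Mmp14, Serpinh1, Sparc and Timp3 were called in all 3 comparisons under all 27 alternatives. The 27 count the authors' table and no background correction separately. The 1 gene lower than in Teff, Lamc1, became 0 without background correction, with an offset of 50, with median scaling, with the authors' table and with no filter on dim probes, and ran from 0 to 1 with arrays left out. Genes higher in memory than in naive cells numbered 0 in place of 3 without background correction, with median scaling and with the authors' table, 1 with an offset of 50 and without memory 3 and 5, and 1 to 8 with single arrays left out, the lowest without memory 3 and the highest without memory 9. Against Teff the 3 became 1 without background correction, with an offset of 50, with the authors' table and without memory 3 and 5, 0 with median scaling, 6 with array weights, and 1 to 8 with single arrays left out. The 1 gene lower in memory cells than in Teff became 0 without background correction, with the authors' table and without memory 3 and 5. Without memory 3 and 5, Ccn2 turned to -0.17 and Timp1 to -0.094 against naive cells, and Ccn2 to -0.26 against Teff. The cause of these changes was not tested. Genes for which every Tpm array lay above every other array numbered 13 to 23 with single arrays left out, the highest without Tpm 14.

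Median scaling shifted the median difference of all genes by 0.07 against naive cells, -0.14 against Teff and 0.95 against memory cells. Relative to all genes, the median of the 29 genes was then 1.99, 2.22 and 0.87, in place of 2.07, 2.06 and 1.56. It turned the calls over all genes from 888 higher and 512 lower to 667 and 224, from 792 and 819 to 377 and 815, and from 1017 and 547 to 4526 and 55. No paired analysis was possible because the labels give no pairing of samples between groups. Genes near background, such as Col1a1, Lox and Fstl1, have differences that depend on the offset, and signal over background was lowest on memory 5.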
